A study of Mus musculus with 6 samples.

Results

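Non-coding RNAs were profiled in isolated intestinal crypts of mice with and without the chromatin remodeller subunit Arid1a. The set was chosen by 2 measured or annotated properties: a probe had to be assigned to a RefSeq non-coding transcript and to be well above background on all 6 arrays. It held 495 probes for 468 transcripts, out of 2556 probes for 2412 non-coding transcripts on the array. A gene symbol was found for 472 of these probes, which stood for 439 genes, and 23 probes had none. The detection flags that chose the probes did not use the groups.

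The 3 control samples (titles A1 to A3) were Arid1a f/f mice of mixed strain, in which recombination sites flank part of Arid1a. The 3 knockout samples (VA1 to VA3) were Villin-Cre; Arid1a f/f mice of mixed strain, in which the Villin promoter drives Cre recombinase in the intestinal epithelium. Both groups thus carried the floxed alleles, and ages were not given in the sources used here. Each sample was hybridised to 1 Agilent one-colour array. For knockout 2 and control 3 the source name and genotype contradict the title and description, and groups here follow the title. The labels do not tie the samples to separate animals, so p-values measure only the spread between these samples, part of which may be technical. Values are log2 processed signal minus the array's 75th percentile over all probes, so that 0 is the level of that percentile.

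Long non-coding RNAs (lncRNAs) are transcripts without a long reading frame, some of which scaffold nuclear bodies, silence neighbouring genes or carry small RNAs in their introns. Small nucleolar RNAs (snoRNAs) guide chemical modification of ribosomal RNA, and many are cut from the introns of host genes whose spliced RNA has no protein product. A transcribed pseudogene is a copy of a coding gene that is still transcribed, and its probe can share sequence with the parent gene. ARID1A is a DNA-binding subunit of the BAF complex, which moves nucleosomes at enhancers and promoters.

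The libraries were checked first. Arid1a itself read 3.71, 3.47 and 4.01 in controls and 2.20, 2.07 and 2.51 in knockouts (log2 fold change -1.47 ± 0.21 SE, limma, Benjamini-Hochberg adjusted p = 0.0107), and knockout 2 and control 3 each lay with the arrays of their titled group. The position of this probe relative to the deletion was not analysed here. On single arrays, 21.6% to 34.3% of the non-coding probes passed the detection flag. Controls 1 and 2 and knockouts 1 and 2 shared a slide, and control 3 and knockout 3 shared another. Transcripts of the Y chromosome split the arrays into 1 male and 2 female among the controls, and 2 male and 1 female among the knockouts. The samples of a group therefore did not all come from 1 animal, though samples of the same sex may have. Xist, the RNA that coats the inactive X chromosome, was above background on 3 arrays and is therefore not in the set. Of 7 Paneth cell markers, 6 were called lower in the knockout and 0 higher, and their summed signal was 836 to 1103 times the 75th percentile in controls and 59.9 to 360 in knockouts. Of 7 crypt base stem cell markers 3 were called lower, and their sum ranged from 62.8 to 84.9 in controls and from 11.52 to 37.1 in knockouts. Of 8 goblet cell markers 3 were called lower (sum 1230 to 1263 in controls and 637 to 851 in knockouts), as were 3 of 6 tuft cell markers (35.4 to 48.5 and 14.9 to 22.5). The sum of 8 markers of T cells ranged from 35.2 to 124 in controls and from 47.3 to 124 in knockouts, and 5 of 7 fibroblast markers (Col1a1, Col3a1, Dcn, Lum and Pdgfra) were above background on 0 arrays. The fibroblast sum was 0.78 to 0.84 in controls and 0.85 to 1.42 in knockouts, and the endothelial sum 0.31 to 0.37 and 0.47 to 0.51. Among 8 enteroendocrine markers 2 were called higher and 1 lower (180 to 208 and 185 to 303). Among 7 macrophage markers 1 was called higher and 1 lower (60.2 to 117 and 89.7 to 189). Among 8 absorptive enterocyte markers 1 was called lower (2773 to 3466 and 2188 to 4247). The part of cell composition in the results below was not tested. In bulk RNA, fewer cells of a type and less RNA per cell cannot be told apart.

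Neat1, the scaffold of nuclear paraspeckles, rose 13.0-fold on one probe and 7.71-fold on the other, and Snhg18, a snoRNA host gene, was 5.70-fold lower in the knockout. With normexp background correction and an offset of 50 added to every signal, these folds were 7.20, 4.21 and 3.63. The pseudogene 5730416F02Rik rose 14.8-fold and the lncRNA 3300005D01Rik 11.8-fold, and the set as a whole changed about as often as other transcripts. Of the 495 probes, 40 were called higher and 12 lower in the knockout (limma, adjusted p under 0.05). The 52 called probes were 10.5% of the set, against 10.3% of all 26746 probes tested and 9.16% of the 22165 probes detected on all 6 arrays. Over all probes tested, 5.84% were called higher and 4.5% lower. The median log2 fold change was 0.13 in the set and 0.07 over all probes tested. The groups did not overlap for 153 of the 495 probes, against 36.4% of all probes tested. Among the 52 called probes, all 52 had groups that did not overlap, which by itself fixes the same direction on both slides. Of these probes, 30 were at least 2-fold higher and 12 at least 2-fold lower.

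These counts rested on few arrays. Leaving out control 1, control 3 or knockout 2 left 20, 27 or 19 called probes, and leaving out knockout 1 gave 95. With normexp all 29 called probes named by the rule had smaller folds, 13 of them by over 1.5 times. Adding the offset shrinks folds by itself, most for dim probes, so no conclusion is drawn from their being smaller. The genes called in every one of the 6 fits with 1 array left out numbered 17. Scaling to the array median, which lowered the median probe by 0.25, gave different counts: 26 probes were called higher and 21 lower, and the median of the set was -0.12. With groups taken from the contradicting source names, 0 members were called (10 at an unadjusted p under 0.05), and without both contradicting arrays 3 were called (81 at an unadjusted p under 0.05). These 3 were 5730416F02Rik, 3300005D01Rik and 1700030C10Rik. In that fit Neat1 (limma, adjusted p = 0.152 and 0.150 on its probes) and Snhg18 (0.0597) were not called.

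**Figure D1:**
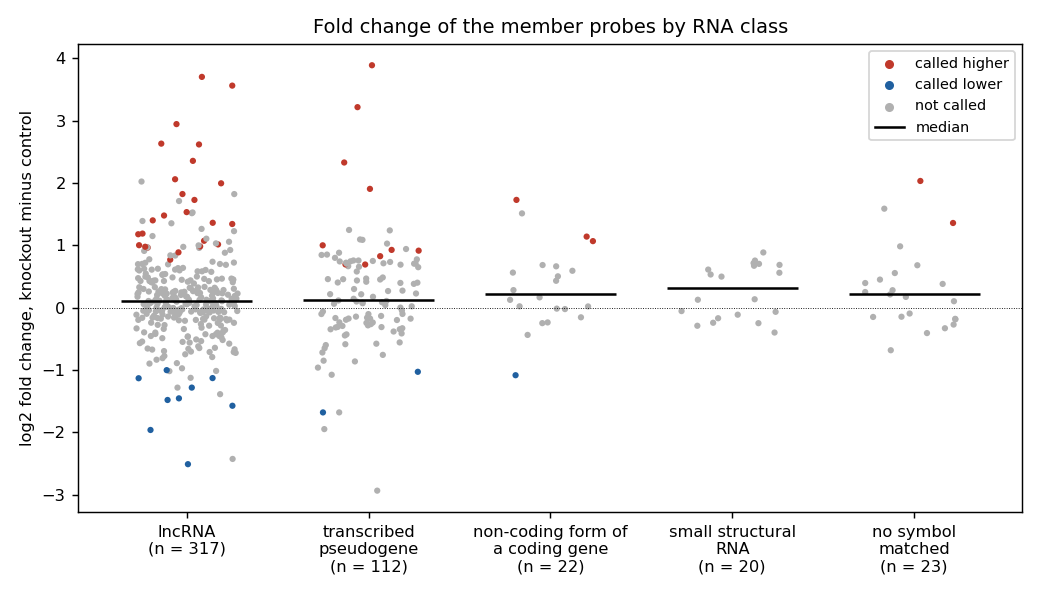
Log2 fold change (knockout minus control) of member probes by RNA class, with n the number of probes. Red and blue points were called higher and lower (limma, adjusted p under 0.05), grey points were not, and black lines are class medians. Called probes lie among lncRNAs, pseudogenes, non-coding forms of coding genes and probes without a symbol, and 0 of the 20 small structural RNAs were called.

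By class, 317 probes belonged to lncRNA genes, of which 25 were called higher and 9 lower. Of 112 probes for transcribed pseudogenes, 10 were called higher and 2 lower. For 22 probes the non-coding transcript came from a gene that also has coding transcripts, and 3 were called higher and 1 lower. Among 20 small structural RNAs (spliceosomal RNAs, snoRNAs, ribosomal RNA and the RNAs of RNase P and RNase MRP), 0 were called, and 2 had an unadjusted p under 0.05. Of the 23 probes without a symbol 2 were called, both higher. Called probes were 10.7% of the lncRNA probes, 10.7% of the pseudogene probes and 18.2% of the non-coding forms of coding genes. The share was 10.3% over all probes tested, beside which the counts in the lists below are to be read. The median log2 fold change was 0.11 for lncRNAs, 0.13 for pseudogenes and 0.32 for small structural RNAs, whose values are taken up below.

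Among RNAs of nuclear bodies and chromatin, Neat1 was called and the other 7 genes were not. Its first probe was at -2.69, -0.87 and -1.73 in controls and at 1.05, 2.39 and 2.38 in knockouts (log2 fold change 3.70 ± 0.55 SE, adjusted p = 0.0117). The second probe read -2.90, -1.93 and -2.08 in controls and -0.32, 1.13 and 1.13 in knockouts (2.95 ± 0.46, adjusted p = 0.0137). On both probes every knockout array lay above every control array, and knockout 1 was the lowest knockout. Without knockout 2 the adjusted p of the second probe was 0.0510, while the first was called in all 6 such fits. Frmd8, the nearest coding gene to Neat1 in RefSeq, was also higher (0.89 ± 0.21, adjusted p = 0.0442).

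Other RNAs of this list did not pass the test. Firre, an X-linked lncRNA of nuclear organisation, read -1.40, 0.10 and -1.25 in controls and 0.33, 0.37 and 0.21 in knockouts (1.15 ± 0.39, adjusted p = 0.106), groups that did not overlap although control 2 lay near the knockouts. Norad, a lncRNA that binds Pumilio proteins, had 4 probes with log2 fold changes from -0.20 to -0.02. Tug1 was at 0.20 and Oip5os1, also known as Cyrano, at 0.26. Jpx, an activator of Xist, was at -0.40. Of 3 genes linked to p53, Neat1 was called and Tug1 and Morrbid were not. Of 3 genes linked to stemness or proliferation (Norad, Snhg1 and Bvht), 0 of 6 probes were called, and their median was -0.03.

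Of the imprinted lncRNAs, which are transcribed from 1 parental allele, Peg13 fell, and Kcnq1ot1 and Airn did not pass the test. Peg13, which lies within Trappc9, read -0.21, -0.07 and -0.31 in controls and -1.16, -1.31 and -1.50 in knockouts (-1.13 ± 0.17, adjusted p = 0.0125). Its call was lost without control 1 or knockout 2 (highest adjusted p 0.0587), and Trappc9 was at -0.11 ± 0.17. Kcnq1ot1, the antisense RNA that silences neighbours of Kcnq1 on the paternal chromosome, read 1.73, 2.75 and 2.08 in controls and 3.03, 3.71 and 3.99 in knockouts on its first probe (1.39 ± 0.35, adjusted p = 0.0523). The groups did not overlap there, and that probe was called with normexp, with the array median, with the replicate number as a block, and without control 2 or knockout 1. On its other member probe, at 1.26 ± 0.41, control 2 (2.18) lay above knockout 1 (2.15). Another probe, detected on 5 arrays and so outside the set, was at 1.28 ± 0.44 (adjusted p = 0.108). Airn, the antisense RNA of Igf2r, was at 0.02 ± 0.25. The coding genes that Kcnq1ot1 and Airn overlap were called lower: Kcnq1, a potassium channel gene, at -2.42 ± 0.41 (adjusted p = 0.0178) and Igf2r at -0.83 ± 0.19 (adjusted p = 0.0422). Trappc9, which Peg13 overlaps, was not called.

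Hosts of microRNAs formed a group of 7 lncRNA genes that enclose 16 annotated microRNAs, and 1 host was called. The arrays measure the host RNA, not the mature microRNA. The mature forms inside 3 of these hosts are shown to give the microRNAs that lie in each transcript. Sequences are from RefSeq (GRCm38.p6), 5′ to 3′, with the seed (bases 2 to 8), which pairs with target RNAs, in capitals:
miR-22-3p, chr11:75463772-75463793, plus strand: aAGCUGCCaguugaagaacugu
miR-22-5p, chr11:75463734-75463755, plus strand: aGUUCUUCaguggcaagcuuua
miR-15a-5p, chr14:61632075-61632096, minus strand: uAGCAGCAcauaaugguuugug
miR-16-5p, chr14:61631936-61631957, minus strand: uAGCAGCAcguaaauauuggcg
miR-183-5p, chr6:30169711-30169732, minus strand: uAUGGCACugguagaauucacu
miR-96-5p, chr6:30169506-30169528, minus strand: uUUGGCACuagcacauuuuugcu
miR-182-5p, chr6:30165962-30165986, minus strand: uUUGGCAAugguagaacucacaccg
The microRNAs miR-15a and miR-16, both in Dleu2, share the seed AGCAGCA, while the seeds of miR-183, miR-96 and miR-182, all in Mirc35hg, differ from each other.

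Mir22hg, which carries both arms of miR-22, rose from 1.49, 2.14 and 1.68 in controls to 2.74, 3.62 and 3.54 in knockouts (1.53 ± 0.30, adjusted p = 0.0267). The groups did not overlap, but the call was lost without control 1, control 3, knockout 2 or knockout 3 (highest adjusted p 0.0996). Dleu2, the host of miR-15a and miR-16-1, read -1.33, -1.14 and -1.30 in controls and -2.34, -1.63 and -1.53 in knockouts (-0.58 ± 0.25, adjusted p = 0.164). Its groups did not overlap either, with knockout 1 the farthest below. Mirc35hg was at 0.33 ± 0.21 and D7Ertd143e, which holds microRNAs of the miR-290 cluster, at 0.29 ± 0.37.

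Of 15 listed genes that host snoRNAs, Snhg18 was called and the other 14 were not. Snhg18, whose intron holds Snord123, read 1.35, 1.33 and 1.19 in controls and -0.67, -1.75 and -1.23 in knockouts (-2.51 ± 0.28, adjusted p = 0.00476). It was the lowest called fold change in the set and was called with any 1 array left out. The other 15 probes of the list ranged from -0.57 (Snhg10) to 1.06 (Snhg7), and 0 were called. Snhg15 read 3.48, 3.80 and 3.75 in controls and 4.15, 4.26 and 4.49 in knockouts on its first probe, groups that did not overlap (0.63 ± 0.18, adjusted p = 0.0722). Snhg7 read 2.33, 3.41 and 2.69 in controls and 3.27, 3.79 and 4.54 in knockouts, where control 2 lay above knockout 1. By position, 24 lncRNA genes of the set enclose 44 annotated snoRNAs, and 1 of their 25 probes was called, against 10.3% of all probes tested.

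Control 3 stood apart for the small structural RNAs. Set against the mean of the 3 controls, the median of their 20 probes was 0.39, 0.25 and -0.93 in controls 1, 2 and 3, against 0.19, 0.39 and 0.32 in the knockouts. Control 3 was the lowest control for 15 of the 20 probes and for 12 of the 16 probes of snoRNA host genes. For the host genes knockout 3, on the same slide, was low too. Their medians were 0.07, 0.34 and -0.45 in controls and 0.42, 0.08 and -0.20 in knockouts. Among all 6 arrays, control 3 was the lowest for 6 host probes and knockout 3 for 5. For the small structural RNAs these counts were 12 and 2. Over all probes tested the corresponding median for control 3 was 0.02. Rnu1a1, a U1 spliceosomal RNA, read 4.4, 3.65 and 2.62 in controls and 3.94, 4.04 and 4.19 in knockouts (0.50 ± 0.43). Rmrp, the RNA of RNase MRP, read -0.17, -0.05 and -2.03 in controls and -0.08, -0.05 and 0.53 in knockouts (0.89 ± 0.54, adjusted p = 0.293). Snora73a, which lies within Snhg3, read 3.2, 3.04 and 1.18 against 3.23, 2.81 and 3.39, and its host 1.47, 1.28 and 0.49 against 1.31, 1.23 and 0.22. Thus control 3 was low for both, while knockout 3 was low for the host alone. Without control 3 the median log2 fold change of the small structural RNAs went from 0.32 to 0.01, and that of the snoRNA host genes from 0.09 to -0.23, with 0 and 1 probes called. That fit leaves knockout 3 as the only array of its slide. The cause of the low values on control 3 was not tested. Rn7sk, which holds the elongation factor P-TEFb inactive, was at -0.11 ± 0.29, and Rpph1, the RNA of RNase P, at -0.40 ± 0.45. The U1 genes are near-identical copies, so their probes cannot be taken as separate measurements.

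**Figure D2:**
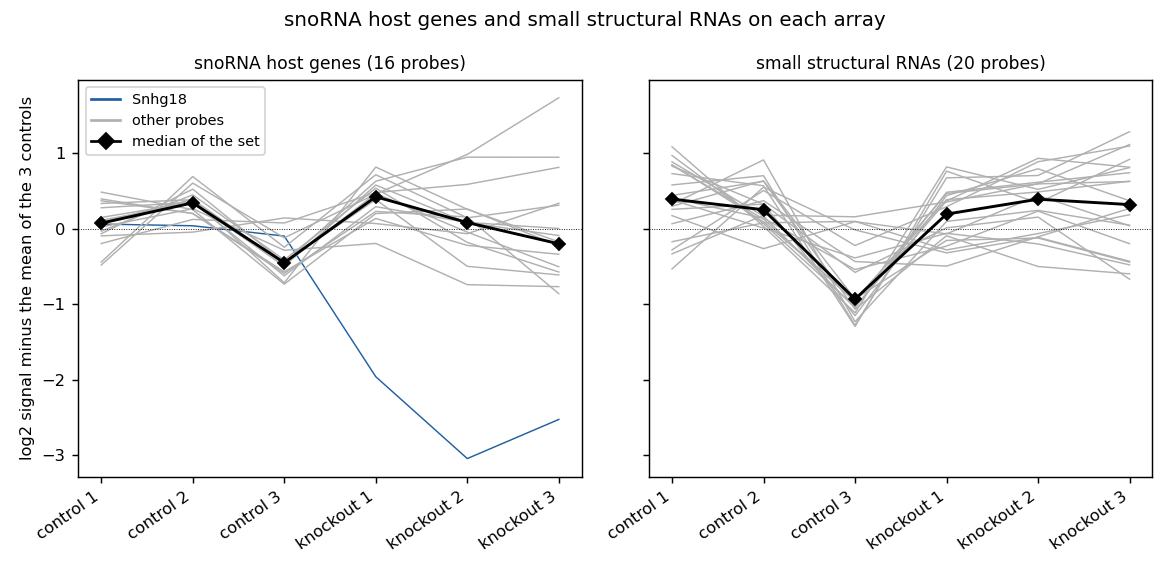
Log2 signal of each array minus the mean of the 3 control arrays, for 16 probes of snoRNA host genes (left) and 20 probes of small structural RNAs (right). Each grey line joins the 6 values of 1 probe, black diamonds are medians, and the blue line is Snhg18. The right median drops to -0.93 on control 3, and Snhg18 is low on all 3 knockouts.

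Of 5 genes linked to the interferon response or the MHC locus, H2-Q5 and Neat1 rose and 3 were not called. This class I locus, annotated as a transcribed pseudogene, read 0.90, 0.74 and 1.20 in controls and 3.14, 2.62 and 2.80 in knockouts (1.91 ± 0.21, adjusted p = 0.00459), and was called with any 1 array left out. The genes of the H2-Q cluster are near-identical, so the signal may be shared. Of 11 coding probes of the cluster 2 were called, both higher, and the 11 ranged from -0.19 to 2.20. H2-K2 was at 0.40 ± 0.25 and Morrbid, a lncRNA beside Bcl2l11, at 0.54 ± 0.26. AW112010, an interferon-induced transcript, read 3.46, 3.46 and 3.56 in controls and 3.75, 3.61 and 4.55 in knockouts (0.47 ± 0.27, adjusted p = 0.264). The groups did not overlap there, and knockout 3 lay apart from the rest.

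Antisense RNAs of developmental genes gave 1 call among 4 genes. Hoxaas3, within the Hoxa cluster, read -1.26, -1.28 and -0.56 in controls and 0.33, 0.16 and 0.49 in knockouts (1.36 ± 0.24, adjusted p = 0.0208). Its call was lost without control 1, control 2, knockout 2 or knockout 3 (highest adjusted p 0.0845). Hoxa3, which it overlaps, was at 0.94 ± 0.42. Which strand each probe reads was not analysed here, so overlapping genes may share signal. The partner RNAs of intestinal factors did not pass: Gata6os was at -0.45 and -0.20 on its 2 probes, Hnf4aos at 0.26 ± 0.40 and Hoxb5os at 0.09 ± 0.32. Bvht, first named for a role in heart development, read 1.30, 3.13 and 2.30 in controls and 2.09, 3.27 and 3.43 in knockouts.

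Transcribed pseudogenes held several of the largest changes. Sprr2j-ps, a copy of the small proline-rich genes that build the cornified envelope, read 0.87, 2.29 and 1.33 in controls and 4.94, 4.53 and 4.67 in knockouts (3.22 ± 0.37, adjusted p = 0.00487). Of 5 coding probes for the Sprr2 family 4 were called higher, at up to 3.08, and these genes are near-identical. The annotated pseudogene 5730416F02Rik read -0.77, -0.59 and -0.22 in controls and 3.13, 3.95 and 3.02 in knockouts, the largest change in the set (3.89 ± 0.30, adjusted p = 0.00155). Defa-ps1, a copy of the alpha-defensins that Paneth cells secrete, read 8.16, 8.07 and 7.87 in controls and 6.51, 5.80 and 2.97 in knockouts, groups that did not overlap (-2.94 ± 0.85, adjusted p = 0.0727). Its knockout values spread widely, and the 19 coding defensin probes ranged from -4.61 to -1.08, 2 of them called, both lower. Gm3219 fell (-1.68 ± 0.34, adjusted p = 0.0286), a call lost without control 1, control 3 or knockout 2.

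Of 17 pseudogenes whose name points to a measured parent gene (19 probes), 13 probes lay within 0.5 log2 units of the parent's fold change, and 12 had its sign. Tyms-ps was at -0.86 beside -0.92 for Tyms, and Ptma-ps2 at -0.85 beside -0.80 for Ptma. Bambi-ps1 went the other way from its parent. It read 1.31, 1.66 and 1.78 in controls and 3.35, 3.96 and 4.44 in knockouts (2.33 ± 0.30, adjusted p = 0.00756). Bambi, a decoy receptor that blocks TGF-beta and BMP signalling, read 0.87, 0.34 and -0.49 in controls and -1.65, -0.96 and -1.72 in knockouts (-1.68 ± 0.39, adjusted p = 0.0415). C4bp-ps1 was at 0.49 and 0.67 on its 2 probes, neither called, while C4bp, an inhibitor of complement, fell (-1.87 ± 0.32). C4bp read -1.57, -1.60 and -2.38 in controls and -3.22, -3.98 and -3.97 in knockouts. These knockout values lay below the lowest mean in the set (-2.90), so the size of the fall rests on dim signal. The difference between pseudogene and parent was not tested.

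Many lncRNAs start next to a coding gene on the opposite strand, an arrangement called head to head, in which both may be served by 1 stretch of promoter DNA. In RefSeq, 78 lncRNA genes of the set started within 1000 bases of such a partner, or overlapped its start by at most 200 bases. In 69 pairs both RNAs were detected on all 6 arrays. Windows of 4 such lncRNAs are shown, the first pair for lncRNAs that fell with the partner and the second for lncRNAs that rose without it. Each runs from 250 bases before to 50 after the lncRNA's start on its own strand (RefSeq, GRCm38.p6), with the bases between both starts in capitals:
Snhg18, chr15:32244613-32244912, minus strand: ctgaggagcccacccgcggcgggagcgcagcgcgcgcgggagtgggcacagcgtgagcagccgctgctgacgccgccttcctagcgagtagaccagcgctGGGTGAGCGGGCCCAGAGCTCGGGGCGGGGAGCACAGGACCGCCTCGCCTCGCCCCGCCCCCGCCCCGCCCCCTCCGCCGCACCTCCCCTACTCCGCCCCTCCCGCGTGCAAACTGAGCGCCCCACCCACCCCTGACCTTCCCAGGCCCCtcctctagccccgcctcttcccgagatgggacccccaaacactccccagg
3010003L21Rik, chr6:148944607-148944906, plus strand: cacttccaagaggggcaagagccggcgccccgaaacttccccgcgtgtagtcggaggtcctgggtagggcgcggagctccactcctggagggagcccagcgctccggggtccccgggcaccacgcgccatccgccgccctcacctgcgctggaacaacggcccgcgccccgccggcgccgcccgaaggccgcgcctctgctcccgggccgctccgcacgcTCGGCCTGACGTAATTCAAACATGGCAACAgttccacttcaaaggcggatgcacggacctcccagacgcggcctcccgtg
2010016I18Rik, chr3:106485864-106486163, minus strand: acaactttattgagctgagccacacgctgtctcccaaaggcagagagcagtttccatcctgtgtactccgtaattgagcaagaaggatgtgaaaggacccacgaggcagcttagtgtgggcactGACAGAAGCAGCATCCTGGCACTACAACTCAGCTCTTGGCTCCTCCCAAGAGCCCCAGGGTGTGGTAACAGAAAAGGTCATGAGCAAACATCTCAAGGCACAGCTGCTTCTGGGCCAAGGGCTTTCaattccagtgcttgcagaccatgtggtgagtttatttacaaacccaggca
Appbp2os, chr11:85234916-85235215, plus strand: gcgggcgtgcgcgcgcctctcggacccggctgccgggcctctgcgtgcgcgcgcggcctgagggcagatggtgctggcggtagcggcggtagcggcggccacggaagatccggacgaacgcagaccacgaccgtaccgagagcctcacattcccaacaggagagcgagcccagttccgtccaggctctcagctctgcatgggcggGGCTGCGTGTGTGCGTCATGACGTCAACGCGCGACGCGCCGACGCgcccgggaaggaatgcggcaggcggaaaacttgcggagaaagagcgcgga
The 4 windows differed in composition: 75.3% of bases were G or C for Snhg18, 71.7% for 3010003L21Rik, 51.3% for 2010016I18Rik and 70.3% for Appbp2os. The CG dinucleotide occurred 31, 37, 3 and 45 times. Windows of this kind were available for 247 lncRNA genes of the set. The sequence TATAAA, searched on both strands, was in 3 of the 78 head-to-head windows (3.85%) and in 14.2% of all 27025 promoters, and the median share of G and C was 67.7% and 52.7%. It was in 0 of 19 windows of lncRNAs called higher and in 1 of 6 called lower. CCAAT was in 10 of these 19 (52.6%), in 3 of the 6, in 33.3% of the head-to-head windows and in 37.9% of all promoters. The sequence TGANTCA, the core of the AP-1 motif, was in 2 of 19 windows of lncRNAs called higher, in 0 of 6 called lower and in 7.93% of all promoters. In the 247 windows of the set, TATAAA was in 10.5%, CCAAT in 35.2% and TGANTCA in 8.10%. Their median share of G and C was 57.7%.

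Snhg18 and Sema5a, a semaphorin gene whose start lies 151 bases away, fell by similar amounts. Sema5a read 2.51, 1.99 and 2.29 in controls and -0.01, -0.54 and -0.87 in knockouts (-2.74 ± 0.27, adjusted p = 0.00300). Both RNAs were separated from controls on all 3 knockouts, and the difference between their fold changes was 0.22 ± 0.32. The lncRNA 3010003L21Rik read 0.26, -0.21 and -0.30 in controls and -1.14, -1.71 and -2.12 in knockouts (-1.57 ± 0.29, adjusted p = 0.0241; second probe -1.45 ± 0.29). Its partner Sinhcaf, a subunit of the SIN3 histone deacetylase complex, changed by -1.45 ± 0.25 (adjusted p = 0.0190). The call of the first probe was lost without control 1, control 3 or knockout 2. In all, 10 of the 69 lncRNAs and 10 of the partners were called, and in 5 pairs both were, each time in the same direction. The other 3 such pairs were Tmem51os1 with Tmem51, 2700046G09Rik with Sgms1 and BC037704 with Slc25a28.

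The test of unequal change called 5 of the 69 pairs (7.25%; limma on the difference per array, adjusted p under 0.05), each with the lncRNA relatively higher than its partner. This direction was mixed in other fits: with the slide as a block 11 pairs were called with the lncRNA relatively higher and 9 with it lower, and with normexp 7 and 3. In 2010016I18Rik the values were -2.84, -2.45 and -2.62 in controls and -0.62, 0.05 and 0.52 in knockouts (2.62 ± 0.30, adjusted p = 0.00531). Dennd2d, a regulator of Rab GTPases that starts 127 bases away, stayed between 2.95 and 3.15 on all 6 arrays, and the difference was 2.71 ± 0.33 (adjusted p = 1.99e-06). Appbp2os rose from -2.98, -2.71 and -3.47 to -1.02, -0.20 and -0.87 (2.36 ± 0.30, adjusted p = 0.00696), against 0.27 ± 0.17 for Appbp2, a difference of 2.09 ± 0.35 (adjusted p = 0.000122). For 4732491K20Rik and Map3k4, a stress kinase gene, the difference was 1.52 ± 0.32 (adjusted p = 0.00177). For 1700003D09Rik and Stard3 it was 1.30 ± 0.34 (adjusted p = 0.0131), where the lncRNA alone was not called. Tmem51os1 rose from -1.53, -0.78 and -1.41 to 0.38, 0.53 and 0.84 (1.82 ± 0.25, adjusted p = 0.00919), more than Tmem51 (0.71 ± 0.16), a difference of 1.12 ± 0.34 (adjusted p = 0.0398). The first 3 of these pairs were called with any 1 array left out, with the slide block and with normexp. With normexp the fold changes of Appbp2os and 2010016I18Rik were 1.23 and 1.65. With 1 array left out the count of pairs ranged from 3 (without knockout 2) to 14 (without control 2), and it was 9 without knockout 1 or knockout 3.

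**Figure D3:**
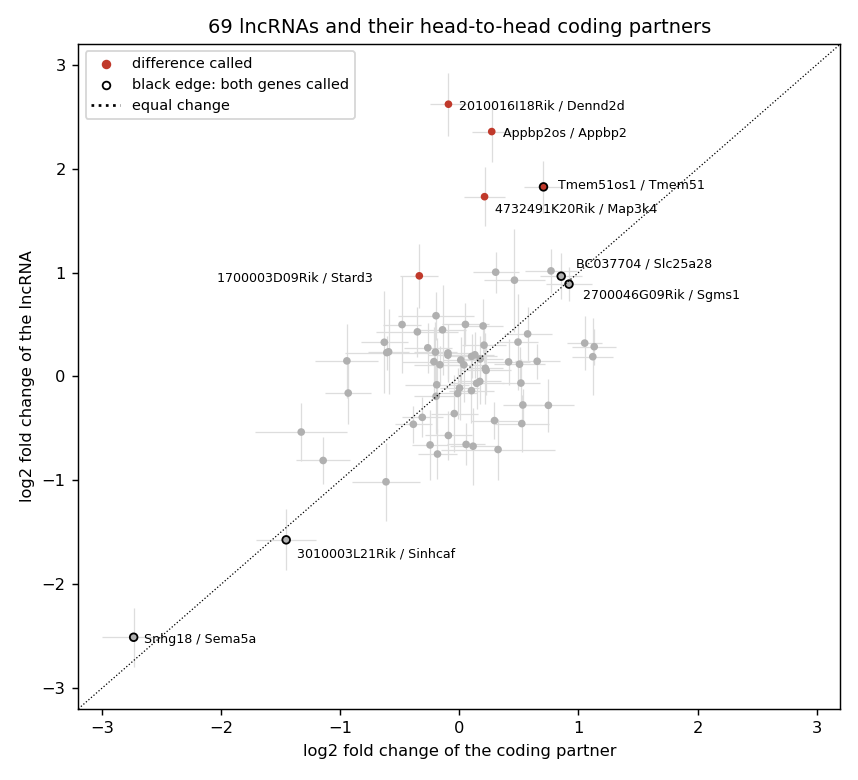
Log2 fold change of 69 lncRNAs (y axis) against that of their head-to-head coding partners (x axis), with standard errors in light grey. Red points mark the 5 pairs whose difference was called, black edges the 5 pairs in which both genes were called, and the dotted line marks equal change. Snhg18 and Sema5a lie together at the lower left, and 2010016I18Rik and Appbp2os lie above partners near 0.

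Nearest coding genes were also read by position, whatever their strand. Of 239 lncRNA genes with a measured neighbour, 25 were called, and in 10 of these the neighbour was called too, each time in the same direction. Where the lncRNA was not called, the neighbour was called in 34 of 214 genes. Over all probes tested the share called was 10.3%. The 10 include the 5 head-to-head pairs named above in which both were called. The lncRNAs 2700046G09Rik, 3010003L21Rik, Tmem51os1 and Gm15133 overlap their neighbours, so their probes may share signal. Whether lncRNAs and neighbours were called together more often was not tested. Outside the head-to-head pairs named above, 2210417A02Rik and Katnal1, a microtubule-severing enzyme gene, fell together (-1.96 ± 0.18 and -1.68 ± 0.26). The lncRNA 2210417A02Rik read -0.43, -0.41 and -0.57 in controls and -2.26, -2.70 and -2.33 in knockouts (adjusted p = 0.00257). The lncRNA 3300005D01Rik read -1.72, -0.65 and -0.70 in controls and 2.52, 2.52 and 2.58 in knockouts (3.56 ± 0.30, adjusted p = 0.00212), while its neighbour Snx9, a membrane-remodelling sorting nexin, rose less (0.73 ± 0.17, adjusted p = 0.0470). Both groups of 3300005D01Rik lay far apart, with knockout arrays within 0.1 of each other. Particl, a lncRNA from the Mat2a promoter, read 0.09, -0.28 and -0.36 in controls and -1.03, -1.15 and -1.38 in knockouts (-1.0 ± 0.20, adjusted p = 0.0275), while Mat2a, the enzyme that makes S-adenosylmethionine, was at 0.68 ± 0.26 and not called. Of the 6 fits with 1 array left out, the one without knockout 1 kept the call of Particl.

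Other RNAs were called as well. The lncRNA 1700030C10Rik read -2.49, -2.05 and -1.93 in controls and 0.54, 0.46 and 0.43 in knockouts (2.63 ± 0.20, adjusted p = 0.00146). A930001C03Rik, which overlaps the gene of the small GTPase Rhod, rose by 2.06 ± 0.24 (adjusted p = 0.00535). A transcript without a symbol rose by 2.03 ± 0.25 (adjusted p = 0.00642). The Rosa26 transcript Gt(ROSA)26Sor, from a locus used for transgenes because it is active in most tissues, had 3 probes from 0.63 to 1.19, and 1 was called (adjusted p = 0.0208). That call was lost without control 1, control 3 or knockout 2. Called lower were 1700028J19Rik (-1.48 ± 0.22), 2310040G24Rik (-1.28 ± 0.28) and Gm5475 (-1.13 ± 0.22), with groups that did not overlap, as for every called member. Each of these 3 lost its call without control 1 and without knockout 2. Over the 27 genes with several member probes, the probes had the same sign in 23.

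**Figure D4:**
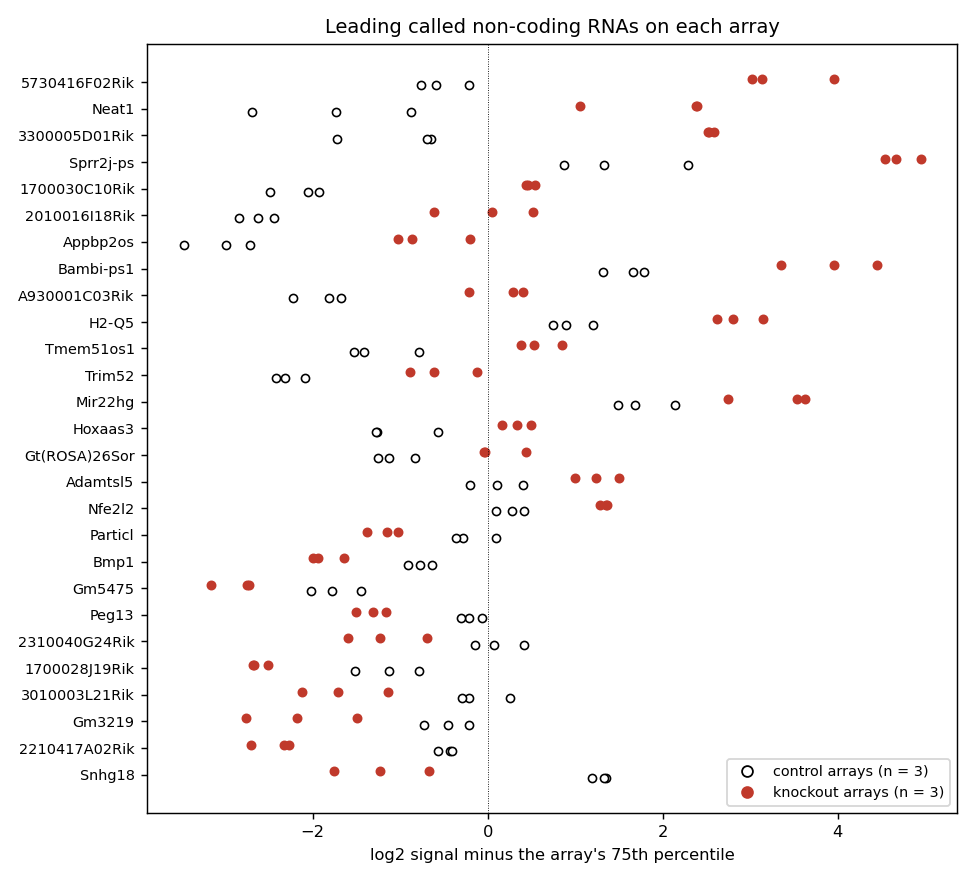
Log2 signal minus the array's 75th percentile on each array for the leading called members, with open circles for the 3 controls and red circles for the 3 knockouts. The order is by fold change, and for genes with several probes the one with the largest change is drawn. For every RNA drawn the circles of the groups do not overlap, as for every called member. Snhg18 is at the bottom and 5730416F02Rik at the top.

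For some coding genes the array has a probe for a non-coding transcript beside one for a coding transcript, so that the 2 can be compared within an array. Of 17 such genes, the fold changes of both probes differed in 8 (47.1%; limma on the difference per array, adjusted p under 0.05), the non-coding probe being relatively higher in 7. Bmp1, a metalloproteinase that processes procollagen, was the exception. Its non-coding probe read -0.91, -0.64 and -0.77 in controls and -2.0, -1.64 and -1.94 in knockouts (-1.08 ± 0.18, adjusted p = 0.0158), while its coding probe read 0.34, 0.28 and 0.81 against 0.17, 0.62 and 1.15. The groups were apart for the first probe and overlapped for the second, and the difference was -1.26 ± 0.31 (adjusted p = 0.0309). The call of the non-coding probe was lost without control 1 or control 3.

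Adamtsl5, a secreted matrix protein gene, read -0.20, 0.10 and 0.41 in controls and 1.0, 1.5 and 1.24 in knockouts on its non-coding probe, against 0.73, 1.1 and 1.23 and 1.04, 1.43 and 1.36 on its coding probe. The difference was 0.89 ± 0.13 (adjusted p = 0.00846). Nfe2l2, which encodes the oxidative stress factor NRF2, rose on the non-coding probe from 0.42, 0.28 and 0.09 to 1.35, 1.37 and 1.28 (1.07 ± 0.16, adjusted p = 0.0126) and was at 0.33 ± 0.23 on the coding probe, a difference of 0.74 ± 0.24 (adjusted p = 0.0498). Both splicing genes Sfpq (1.34 ± 0.41, adjusted p = 0.0486) and Snrnp70 (1.82 ± 0.58, adjusted p = 0.0498) had a relatively higher non-coding probe, as did Zfp672 (1.26 ± 0.25, adjusted p = 0.0223), a zinc finger gene. The differences of Hspa14, a chaperone gene, and Taf1d, a subunit gene of the RNA polymerase I factor SL1, were 0.54 ± 0.13 and 0.52 ± 0.15. In these genes, from Sfpq to Taf1d, neither probe was called alone under the adjustment over all probes tested. The non-coding and coding probes were at 0.56 and -0.78 for Sfpq, 1.51 and -0.31 for Snrnp70, and 0.66 and -0.59 for Zfp672. For Hspa14 they were at -0.02 and -0.57, and for Taf1d at 0.59 and 0.08. Trim52, of the TRIM ubiquitin ligases, rose on its non-coding probe (1.73 ± 0.24, adjusted p = 0.00908). These differences depended on single arrays. Without knockout 2 the count was 0 of 17, without knockout 1 or knockout 3 it was 1 (Adamtsl5), without control 1 or control 3 it was 2 (Adamtsl5 and Zfp672), and without control 2 it was 9. With the slide as a block Sfpq, Snrnp70, Taf1d and Nfe2l2 lost the call, and Adamtsl5, Bmp1, Hspa14 and Zfp672 kept it. A probe may also detect more than the transcript it is assigned to.

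**Figure D5:**
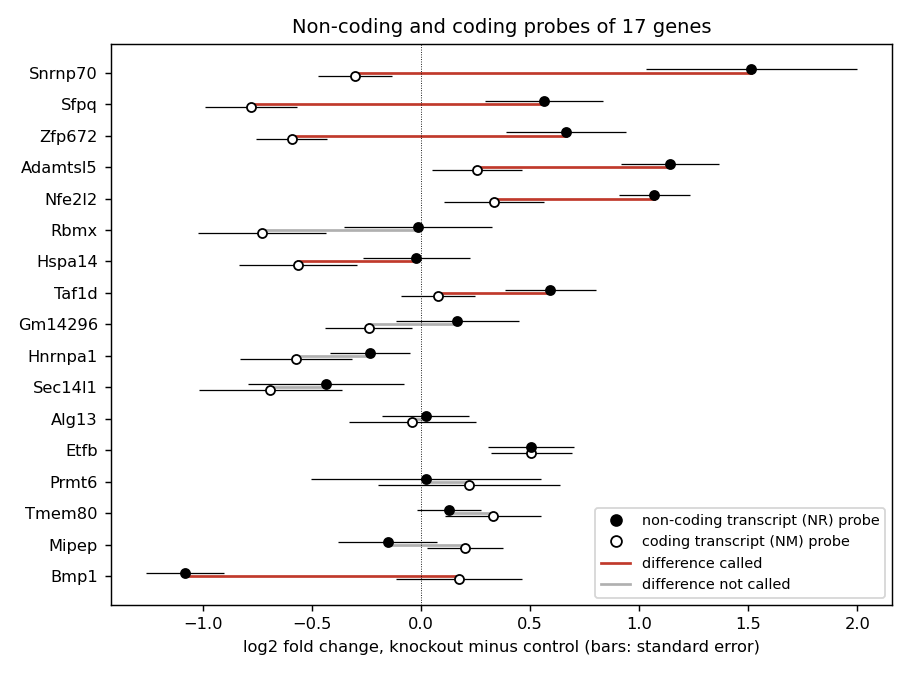
Log2 fold change of the non-coding (filled) and coding (open) probe of 17 genes, with standard errors as bars. Red lines join probes whose difference was called, grey lines the others. Bmp1 is the only called gene with the non-coding probe at the left.

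The detection rule left out RNAs that were near background in some samples. Just outside it, 72 probes were detected on 5 arrays, with mean values from -3.46 to -1.13, while the lowest mean inside it was -2.90. Another 7 non-coding probes were detected on all 3 knockouts and 0 controls and 2 on all 3 controls and 0 knockouts. Of the latter, Mexis, a lncRNA linked to the cholesterol exporter Abca1, read -2.05, -1.45 and -1.60 in controls and -4.87, -4.79 and -6.75 in knockouts, where it was not well above background. The other was Gm6329. Among the 7 was Snora52, a snoRNA, at -3.58, -4.44 and -4.66 in controls and -3.2, -2.40 and -3.01 in knockouts. These were chosen by their detection, so no test is given.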

How the data were processed

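Isolated crypts gave 6 RNA samples, each read with Cy3 on an Agilent one-colour array, per the labels. The authors' deposited scanner files give each spot's processed intensity, already background-subtracted, from Agilent Feature Extraction (12.0.3.1 per the file headers, 11.5.1.1 per the submitters' processing notes). The authors also deposited a value table in log2 units. Comparison with the scanner signals placed it on the 75th percentile scale with each probe centred on its median. Its columns had medians of 0.196, 0.0610 and -0.325 (controls) and -0.0717, 0.216 and -0.184 (knockouts). The table served as an alternative only.

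After removing control spots and flagged outliers, spots of a probe were averaged, and log2 intensity minus each array's 75th percentile taken. Probes were named through the unversioned RefSeq accession and a gene table of GRCm38.p6 (33767 of 56605 probes matched). Probes well above background on at least 3 arrays (26746) were fitted with limma 3.58.1 (R 4.3.3), the group being the single term, with moderated two-sided tests (eBayes) and Benjamini-Hochberg adjustment over all of these probes. A probe was called where its adjusted p was below 0.05. The ± values are standard errors with 3 arrays a group, and the number of arrays limits the precision. The fit was tested on simulated data.

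The members, the 9 lists of non-coding RNAs and the marker lists were chosen with earlier results of these data known. Named RNAs are members on the lists, with up to 4 per list in full, the called members with the largest change in each direction and groups that did not overlap (up to 12 with a gene name and 6 with a clone name) and up to 8 genes whose non-coding and coding probes differed. Normexp was run on median signals with an offset of 50. The head-to-head test was chosen after seeing the data. Pseudogene parents, head-to-head and nearest-gene pairs, Mexis and Snora52 were added after values were seen, and some called members are not named. For gene pairs the brightest probe of each was used and limma run on the per-array difference, over 17 and 69 pairs. Bases between starts and hosted small RNAs came from RefSeq positions on GRCm38.p6, not from the array's own coordinates. One pseudogene is not reported here.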

Additional observations from a re-analysis of the deposited data

How the results depend on the processing

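The count of called members was 52 (40 higher, 12 lower). It was 0 with groups by source name, 3 (3 and 0) without both contradicting arrays, 7 (6 and 1) on slide 1 alone, 34 (26 and 8) with sex as a block, 16 (14 and 2) with no filter on dim probes, 220 (151 and 69) with array quality weights and 15 (13 and 2) at an adjusted p under 0.01. With the array median 26 were higher and 21 lower, with normexp 19 were lower, and with the slide as a block 20 were lower. With 1 array left out the count ranged from 19 to 95, with 16 to 61 higher and 2 to 34 lower. The median log2 fold change was 0.13 and changed sign with the array median (-0.12) and with groups by source name (-0.02). Quantile scaling, the percentile over detected probes, a robust trend, 1 probe per gene and the deposited table stayed within 1.5 times of each count.

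The replicate number as a block gave 79 called members (55 higher, 24 lower). Deviations from the group means correlated at 0.32, 0.07 and 0.33 between samples of one number, all positive. Control 3 and knockout 3 also shared a slide, and whether the numbers mark pairs was not tested. Of 29 called named probes, 29 kept the call with that block, with the slide block and with quantile scaling, 28 with normexp, 27 with the array median and 3 without both contradicting arrays, and 0 reversed. Among named probes not called, 2 gained a call with the replicate block, 2 with normexp, 1 with the array median, 2 without control 2 and 3 without knockout 1.

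Of the 8 called differences between non-coding and coding probes, the count was 0 with groups by source name and without both contradicting arrays, 5 with the replicate block, 4 with the slide as a block, 3 with normexp and 0 to 9 with 1 array left out. Of the head-to-head pairs, a test chosen after seeing the data, 5 were called, all with the lncRNA relatively higher. The counts higher and lower were 11 and 9 with the slide as a block, 15 and 10 with the replicate block and 7 and 3 with normexp. Without both contradicting arrays they were 3 and 2, where 1700003D09Rik and Tmem51os1 lost the call and 0610009L18Rik and Cep83os, lower than their partners, gained it. The causes were not tested. Probes near background and the 3 arrays a group limit what could be called.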
